A study of Mus musculus with 20 samples.

Results

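The genes described here are 10 members of the heat shock response: the HSP70 chaperones Hspa1a, Hspa1b and Hspa8, the HSP110 chaperone Hsph1, the J-domain co-chaperone Dnajb1, the co-chaperone Bag3, the small heat shock proteins Hspb8, Hspb1 and Cryab, and the HSP90 chaperone Hsp90aa1. They were taken by name, as every probe that the array files list under one of these gene names, which gave 16 of 41174 probes and 10 of 27376 genes. Of the 10 genes, 9 passed the filters on signal and spot quality and were tested, among 15725 genes tested in all. Hsp90aa1 was not tested and is described by its values alone. On its probe used in the fit, the stress-inducible Hspa1a read higher in legs that received mutant HDAC4 and HDAC5. This held against the other leg of the same animal in 10 of 10 mice, by only 0.01 in 1 of them. The other Hspa1a probe was higher in 5 of 6 measured pairs. The fitted ratio over both injections was 4.79. This fitted difference did not pass the test over all genes unless the animal was kept as a block or other settings were used. Dnajb1 was the 1 member of 9 that passed in the main fit. It did so in right legs of mice given Scriptaid, where it was 1.75-fold higher than in their left legs. Of all genes 1.24% passed there, and 0.211% with spots near the array edge left out, where Dnajb1 did not pass. Its other probe did not pass, and 8 of 14 other settings and 16 of 20 left-out arrays ended the call. Bag3 did not pass in any comparison.

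The study measured messenger RNA in the extensor digitorum longus (EDL), a fast muscle of the hindlimb, of 10 male C57Bl6 mice on 20 one-colour arrays. At 8 weeks of age each leg received 30 µL of recombinant adeno-associated virus of serotype 6 (rAAV6) into the muscle. The left leg always received an empty rAAV6 vector, and the right leg always received vectors for the point mutants D832N HDAC4 and D861N HDAC5 (together dnHDAC4/5, dominant negative forms of class IIa histone deacetylases), at 25000000000 vector genomes of each. After 4 weeks, 5 mice were injected intraperitoneally with Scriptaid, a hydroxamate inhibitor of histone deacetylases, and 5 with the vehicle, 5% DMSO in PBS.

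There are 4 groups of 5 arrays. EV and HV are the left and right legs of vehicle mice, with the empty vector and with dnHDAC4/5, and ES and HS are the same legs of Scriptaid mice. A number after a group's name is the replicate, so HS 2 is the second HS array. EV and HV legs with the same number are the 2 legs of 1 mouse, and so are ES and HS legs. All 20 legs thus carried an rAAV6 vector, and every mouse had its own HDAC4 and HDAC5 genes beside the mutants. Leg side and vector cannot be told apart, and each mouse carried the mutants in 1 leg and saw its injection in both. The Scriptaid dose, the time from injection to tissue collection and the promoter of the vectors are not given in the sources used here. For ES the titles name the vehicle, but the treatment field and the description name Scriptaid. The identifiers of the mice name no drug but pair the ES legs with the HS legs. ES was taken as Scriptaid.

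HSP70 chaperones bind unfolded stretches of proteins, J-domain partners such as Dnajb1 deliver these clients and start the ATP cycle, and exchange factors such as Hsph1 and Bag3 release them. In striated muscle Bag3 also joins HSP70 to the small heat shock proteins, above all Hspb8, and this complex sends damaged filamin and other Z-disc proteins to autophagy, a route called chaperone-assisted selective autophagy. Transcription of most of these genes is raised by heat shock factors, which bind repeats of the short motif GAA in alternating orientation. HDAC4 and HDAC5 repress muscle genes through MEF2 factors, and the design asks which transcripts depend on them and on the drug.

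Hspa1a and Hspa1b are near-identical intronless genes that encode the stress-inducible HSP70. The array reads each with a pair of probes of 60 bases. The files list transcripts of both genes for both Hspa1b probes, and the Hspa1a transcript alone for both Hspa1a probes, so the Hspa1b probes cannot separate the genes. The Hspa1b probes and the 30 bases that both Hspa1a probes share are shown because they decide which gene a signal belongs to. For these no part is singled out by capitals.
A_52_P52803 (Hspa1b): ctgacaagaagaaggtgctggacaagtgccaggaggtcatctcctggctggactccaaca
A_52_P304902 (Hspa1b): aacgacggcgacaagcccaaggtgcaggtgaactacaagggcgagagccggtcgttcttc
Shared by the Hspa1a probes: AGGGAAACTAAACTGTCTTTCAGTTACTTT

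The promoters are shown because the members have their best known common regulator there. RefSeq promoter windows of assembly GRCm38.p6, from 250 bases before the transcription start to 50 after it, were at hand for 7 of the 10 members. The windows of Hspa1a and Hspa1b had 296 identical bases of 300. The 150 bases before the start are printed for these genes and for Hspb1 and Hsph1, and 28 bases around the motif for Hspb8 and Bag3. Capitals mark GAANNTTC or TTCNNGAA, the paired repeats that were searched for, each of which is its own reverse complement.
Hspa1a, chr17:34972157-34972306, minus strand: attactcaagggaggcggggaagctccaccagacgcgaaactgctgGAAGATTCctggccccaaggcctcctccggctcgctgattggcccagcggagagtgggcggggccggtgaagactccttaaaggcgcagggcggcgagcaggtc
Hspa1b, chr17:34959239-34959388, minus strand: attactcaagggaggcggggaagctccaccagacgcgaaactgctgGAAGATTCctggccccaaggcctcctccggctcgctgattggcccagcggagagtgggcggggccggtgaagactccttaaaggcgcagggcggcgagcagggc
Hspb1, chr5:135887769-135887918, plus strand: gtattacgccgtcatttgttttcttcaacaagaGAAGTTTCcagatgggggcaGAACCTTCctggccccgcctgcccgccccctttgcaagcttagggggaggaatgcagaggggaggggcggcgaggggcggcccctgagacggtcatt
Hsph1, chr5:149636337-149636486, minus strand: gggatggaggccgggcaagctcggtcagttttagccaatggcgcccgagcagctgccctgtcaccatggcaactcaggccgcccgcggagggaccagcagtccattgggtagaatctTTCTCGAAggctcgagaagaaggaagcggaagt
Hspb8, chr5:116422845-116422872, minus strand: gaagccaggaGAAGTTTCtaggctcgcg
Bag3, chr7:128523605-128523632, plus strand: aagttctctggatgggaccaGAAGTTTC

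GAANNTTC was found in the windows of 6 of the 7 member genes and in 7.86% of all 32851 windows of that length. TTCNNGAA was found in 1 of the 7, Hsph1, and in 8.52% of all windows. The longer form, in which both motifs overlap by their shared GAA or TTC in 1 run of 3 repeats, was searched on both strands and was found in Hsph1 alone among the 7 and in 0.603% of all windows. Counted from the start site, the first base of GAANNTTC lay at -104 in Hspa1a and in Hspb1 at -117 and -97, whereas it lay at 43 in Bag3 and at 3 in Hspb8. The windows of Dnajb1 held neither motif. These are matches of letters in a window and not binding sites.

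All values below are log2 values, the background-corrected spot intensity on the log2 scale minus the 75th percentile of its array, so that 0 is the 75th percentile. That percentile lay between 248.4 and 608.1 in intensity units over the 20 arrays, and 51.7% to 61.3% of spots were well above background. The genes of a fast-fibre marker list had mean levels of 6.66 to 7.87 on every array, which fits the labelled muscle. Some of the brighter spots in the outer 2 columns on each side read low on HS arrays. There 8.78% to 17.4% of them lay more than 3 log2 units below their own median over the 20 arrays. On the other arrays at most 2.83% did. Probes of 3 members lie within the outer 5% of rows or columns, and this is named where it touches a result. Each slide carried 1 array of every group, and a group always had the same place, which cannot be told apart from the group itself. The native Hdac4 and Hdac5 probes gave no check of the vectors, with vector differences of 0.28 and -0.01 in vehicle mice.

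Hspa1a read higher in right legs and varied widely between mice. In the vehicle mice, numbered 1 to 5, the left legs read 1.41, 3.21, 2.51, 0.53 and 0.10 and the right legs 1.88, 4.92, 3.81, 4.79 and 0.12 (probe A_51_P117952). In the Scriptaid mice the left legs read 0.56, 1.48, 1.53, 2.44 and 1.55 and the right legs 3.57, 4.5, 2.47, 6.24 and 5.64. Vehicle mouse 5 was low in both legs, and right and left legs overlapped among vehicle mice. Among Scriptaid mice every right leg lay above every left leg, with the closest pair of values at 2.47 and 2.44. Of genes measured on all arrays of both groups, 1.74% showed this separation. Within a mouse the right leg exceeded the left by 0.01 to 4.26 in vehicle mice and by 0.94 to 4.09 in Scriptaid mice.

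The group means of Hspa1a were 1.55 ± 1.31 (SD, n = 5) in EV, 3.10 ± 2.07 in HV, 1.51 ± 0.66 in ES and 4.48 ± 1.53 in HS. The vector difference in Scriptaid mice was 2.97 ± 0.87 (SE), a ratio of 7.84 with a 95% interval of 1.14 to 4.80 on the log2 scale, and it did not pass (limma adjusted p = 0.117). With the animal as a block, which uses only differences between the legs of a mouse, it passed at 2.97 ± 0.58 (limma adjusted p = 0.0372). With spots near the array edge left out as well, the difference was the same and the limma adjusted p was 0.0638. In vehicle mice the difference was 1.55 ± 0.87 (limma unadjusted p = 0.0926, adjusted p = 1). Averaged over both injections it was 2.26 ± 0.62 (limma adjusted p = 0.0816), and 0.0352 with the animal as a block. It also passed without HV 5 or HS 3, where the averaged difference was 2.63 and 2.51 (limma adjusted p = 0.0186 and 0.0435). The test of whether the vector difference depended on Scriptaid gave 1.42 ± 1.24 (limma adjusted p = 1), with an interval of -1.17 to 4.01 that covers both no dependence and a large one. In empty-vector legs alone Hspa1a differed between Scriptaid and vehicle by -0.04 ± 0.87.

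The other Hspa1a probe, A_52_P82741, lies in the first column of the array and lost 4 spots to quality marks. It was higher in the right leg in 5 of 6 measured pairs, by a median of 2.49. Over 16 arrays it followed the first probe with r = 0.81, and with r = 0.98 when EV 3 was left out, where it read -2.62 against 2.51 for the first probe.

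The Hspa1b probes gave the same picture, as they may read both genes. Probe A_52_P52803 read -0.58, 0.92, 0.53, -1.95 and -2.04 in the left legs of vehicle mice and -0.22, 3.11, 1.67, 2.70 and -2.80 in their right legs. In Scriptaid mice it read -1.70, -0.68, -0.69, 0.39 and -0.57 on the left and 2.04, 2.52, 0.58 and 4.31 on the right, with HS 5 left out by a quality mark. The right leg was higher in 8 of 9 pairs, and vehicle mouse 5 was the exception, at -0.76. The vector difference was 1.51 ± 0.96 in vehicle mice and 3.01 ± 1.02 in Scriptaid mice (limma adjusted p = 0.198, and 0.0928 with the animal as a block). Averaged it was 2.26 ± 0.70 (limma adjusted p = 0.140), and it passed at 2.72 without HV 5 (limma adjusted p = 0.0214). The dimmer probe A_52_P304902, well above background on 15 arrays, was higher in the right leg of 10 of 10 mice, by 0.22 to 3.84. Across 19 arrays the 2 Hspa1b probes correlated at r = 0.96, and Hspa1a with Hspa1b at r = 0.99, over points that share arrays and mice.

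**Figure D1:**
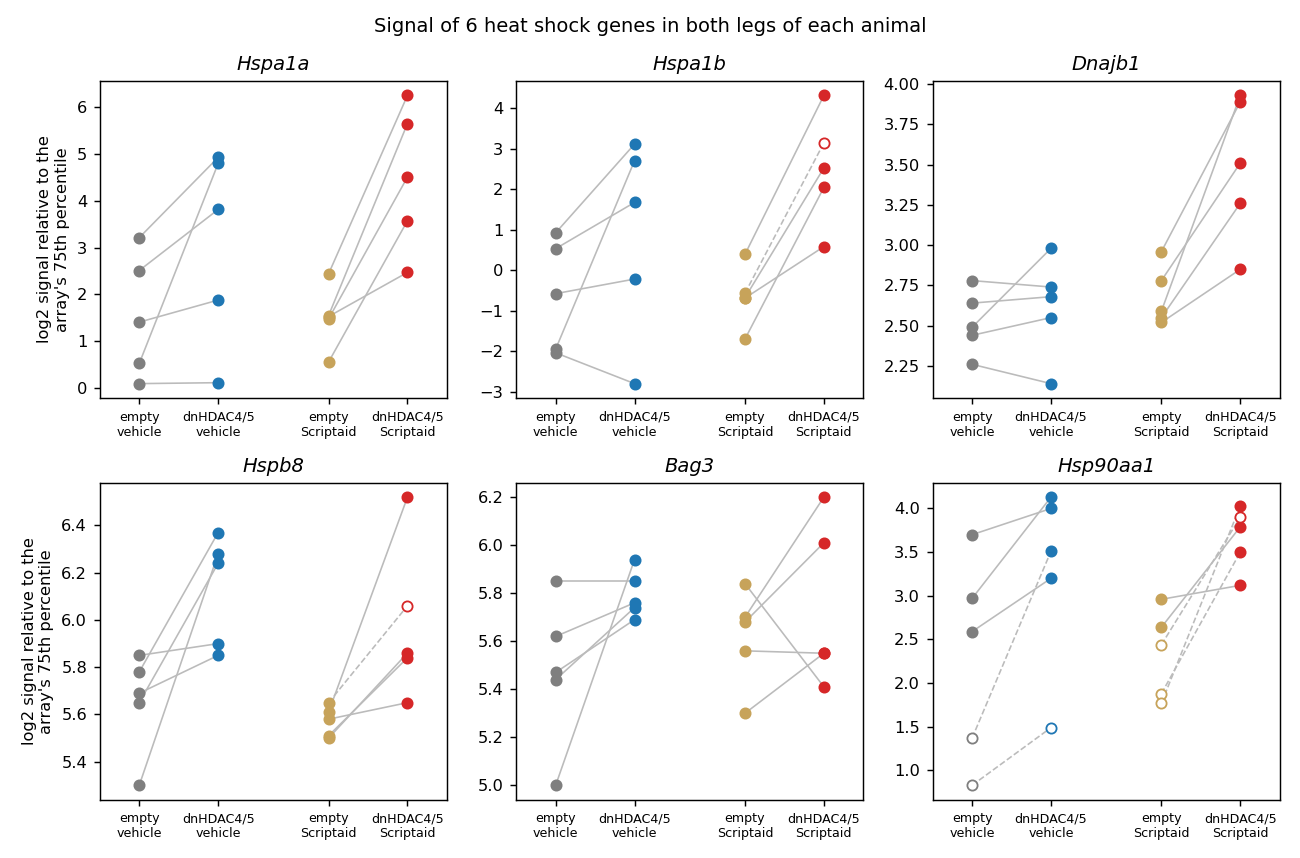
Log2 value (relative to the array's 75th percentile) of Hspa1a, Hspa1b, Dnajb1, Hspb8, Bag3 and Hsp90aa1, with 1 probe each. The other members are not drawn. Values are those of the left (empty vector) and right (dnHDAC4/5) leg of every vehicle and Scriptaid mouse. A line joins the legs of 1 mouse, and open points and dashed lines mark spots left out by quality marks. Hspa1a and Hspa1b slope upward in nearly all mice, and Dnajb1 slopes upward in all 5 Scriptaid mice.

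Dnajb1, the HSP40 partner that stimulates HSP70, was the member that passed. Its probe A_51_P153486 read 2.78, 2.49, 2.64, 2.26 and 2.44 in EV and 2.74, 2.98, 2.68, 2.14 and 2.55 in HV. In Scriptaid mice it read 2.78, 2.52, 2.55, 2.96 and 2.59 on the left and 3.51, 2.85, 3.26, 3.89 and 3.93 on the right. HS legs thus stood above the other groups except for HS 2, which lay below the highest ES and the highest HV leg. The right leg was higher in 5 of 5 Scriptaid mice, by 0.33 to 1.34, and in 3 of 5 vehicle mice, by -0.12 to 0.49.

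In Scriptaid mice Dnajb1 rose by 0.81 ± 0.19 (SE) in right over left legs, a ratio of 1.75 (limma adjusted p = 0.0453). Members that passed here were 1 of 9, against 1.24% of all genes tested. Between the 2 injections, Dnajb1 rose by 0.87 ± 0.19 in dnHDAC4/5 legs (limma adjusted p = 0.0270), again 1 of 9 members, against 1.28% of all genes. With edge spots left out, 0.211% and 0.267% of genes passed in these comparisons, and no member did. Both comparisons use the same 5 HS arrays and are therefore not separate evidence. In empty-vector legs Scriptaid gave 0.16 ± 0.19, and in vehicle mice the vector gave 0.10 ± 0.19. The interaction was 0.71 ± 0.27 (limma unadjusted p = 0.0173, adjusted p = 0.918), so a dependence of the vector difference on Scriptaid did not pass.

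The calls of Dnajb1 were not firm. The other probe of the gene, A_52_P171663, differed by 0.27 ± 0.25 between the legs of Scriptaid mice and by 0.23 ± 0.25 between injections in dnHDAC4/5 legs, and neither passed (limma adjusted p = 0.793 and 0.835 over probes). The probes correlated at r = 0.54 over 20 arrays. Among single arrays left out, the call between legs was kept only without HV 2, HV 4, HS 2 or HS 3, and the limma adjusted p ranged from 0.00523 to 0.125. The call between injections was lost without HV 4, HV 5, HS 1, HS 4 or HS 5, with a limma adjusted p of up to 0.0808. Of 14 other settings, 8 ended the first call and 6 the second. With normexp and quantile normalization the differences were 0.37 and 0.42, and with the mean of both probes 0.54 and 0.55. Averaged over both injections Dnajb1 differed by 0.45 ± 0.14 (limma adjusted p = 0.122), and by 0.53 without HS 2 (limma adjusted p = 0.0308).

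Hspa8, the constitutive HSP70 of all cells, was close to the top of the scale. Its probe A_51_P170371 lies in the edge zone, 5 of its 20 spots were left out, and several of the others were saturated. The measured values ran from 6.83 to 7.11 in EV (n = 3), 6.93 to 7.23 in HV (n = 4), 6.66 to 7.22 in ES (n = 5) and 7.21 to 7.29 in HS (n = 3). The left-out spots read 5.54 and 6.97 in EV, 6.35 in HV, and 6.03 and 5.16 in HS. The right leg was higher in all 5 measured pairs, by 0.07 to 0.33, and the averaged difference was 0.17 ± 0.10 (limma adjusted p = 0.556). With the left-out spots kept, the averaged value was -0.09, so its direction rests on that choice. The other probe, A_52_P12877, could not be tested because the scanner software marked all 5 HS spots as non-uniform. Its HV legs read 5.27 to 5.44 and its EV legs 5.05 to 5.46, with the right leg higher in 4 of 5 vehicle mice.

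Hsph1, the HSP110 exchange factor of HSP70, also has its probe in the edge zone, with 4 spots left out. Measured values were 2.75 to 4.44 in EV, 3.69 to 4.56 in HV, 3.69 to 4.51 in ES and 4.13 to 4.64 in HS, each over 4 arrays, so the groups overlapped. The vector differences were 0.41 ± 0.32 in vehicle and 0.25 ± 0.32 in Scriptaid mice (limma adjusted p = 1 and 0.864). Within measured pairs the picture was the reverse, with a mean of -0.05 over 3 vehicle mice and 0.41 over 3 Scriptaid mice.

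Bag3, the exchange factor that joins HSP70 to small heat shock proteins, differed little between legs. Probe A_51_P371174 read 5.00, 5.47, 5.85, 5.44 and 5.62 in EV and 5.94, 5.69, 5.85, 5.74 and 5.76 in HV. In ES it read 5.56, 5.30, 5.84, 5.70 and 5.68 and in HS 5.55, 5.55, 5.41, 6.20 and 6.01. EV 1 was the lowest array and HS 4 the highest, and the groups overlapped throughout. The right leg was higher in 5 of 5 vehicle mice, by 0.01 to 0.94, and in 3 of 5 Scriptaid mice, by -0.43 to 0.49.

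The fitted vector difference of Bag3 was 0.32 ± 0.16 in vehicle mice (limma unadjusted p = 0.0685, adjusted p = 1) and 0.13 ± 0.16 in Scriptaid mice (limma adjusted p = 0.866). Averaged it was 0.22 ± 0.12, with a 95% interval of -0.02 to 0.47. Scriptaid differences were 0.14 ± 0.16 in empty-vector legs and -0.05 ± 0.16 in dnHDAC4/5 legs. A dimmer probe, A_52_P630059, listed without a RefSeq transcript, gave 0.26 ± 0.19 and 0.42 ± 0.19 in vehicle and Scriptaid mice and did not pass either. It was higher on the right in 8 of 10 mice, as was the first probe, and the probes correlated at r = 0.40 over 20 arrays.

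Hspb8, the small heat shock protein that Bag3 binds, read 5.30, 5.65, 5.69, 5.78 and 5.85 in EV and 6.28, 6.24, 5.85, 6.37 and 5.90 in HV. In ES it read 5.51, 5.58, 5.50, 5.61 and 5.65 and in HS 5.84, 5.65, 5.86 and 6.52, with HS 5 left out and HS 4 saturated. Every HV leg lay above every EV leg, although the closest values both round to 5.85. Among genes measured on all arrays of both groups, 0.258% showed that separation, and among 6 such members Hspb8 was the 1. The right leg was higher in 9 of 9 measured pairs, by 0.05 to 0.98.

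The vector difference of Hspb8 was 0.47 ± 0.16 in vehicle mice (limma unadjusted p = 0.00725, adjusted p = 0.811) and 0.39 ± 0.17 in Scriptaid mice (limma adjusted p = 0.339). The averaged difference of 0.43 ± 0.11, a ratio of 1.35, missed the threshold (limma adjusted p = 0.0723, and 0.0988 with the animal as a block). It passed without HS 2 (limma adjusted p = 0.0372) and without HV 5. Scriptaid differences were -0.08 ± 0.16 and -0.16 ± 0.17 in the 2 kinds of leg, neither past its error.

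Hspb1, the small heat shock protein called HSP25 in mice and HSP27 in humans, read 5.26 to 6.10 in EV, 5.40 to 6.06 in HV, 5.45 to 5.79 in ES and 5.45 to 6.52 in HS, with HS 3 left out. Only HS 4 and HS 5, at 6.26 and 6.52, lay above all other arrays. The vector difference was 0.01 ± 0.21 in vehicle mice and 0.41 ± 0.22 in Scriptaid mice (limma adjusted p = 0.504). It was higher on the right in 6 of 9 pairs.

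Cryab, the small heat shock protein alpha B-crystallin of muscle and lens, gave opposite signs with its probes. Probe A_52_P106482, the brighter one with 6 of 20 spots saturated and 2 left out, read 6.23 to 7.33 in EV, 6.83 to 7.37 in HV, 6.32 to 6.78 in ES and 6.72 to 7.31 in HS. Its averaged vector difference was 0.27 ± 0.14 (limma adjusted p = 0.487), with the right leg higher in 6 of 8 pairs. The other probe, A_51_P504423, differed by -0.25 ± 0.10 (limma adjusted p = 0.305 over probes), and was lower in the right leg in 8 of 10 mice. The probes correlated at r = 0.03 over 18 arrays, so no direction is given for Cryab.

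Hsp90aa1, the stress-inducible HSP90, lost 7 of 20 spots to quality marks and kept fewer than 3 arrays in ES, so it was not tested. Measured values were 2.97, 3.70 and 2.59 in EV, 3.51, 4.13, 4.00 and 3.20 in HV, 2.64 and 2.96 in ES, and 3.50, 3.79, 3.12 and 4.03 in HS. Only 2 ES arrays were measured, and how they stood against HS was not tested. The right leg was higher in 5 of 5 measured pairs, by 0.16 to 1.16, and in 10 of 10 when the left-out spots were counted.

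**Figure D2:**
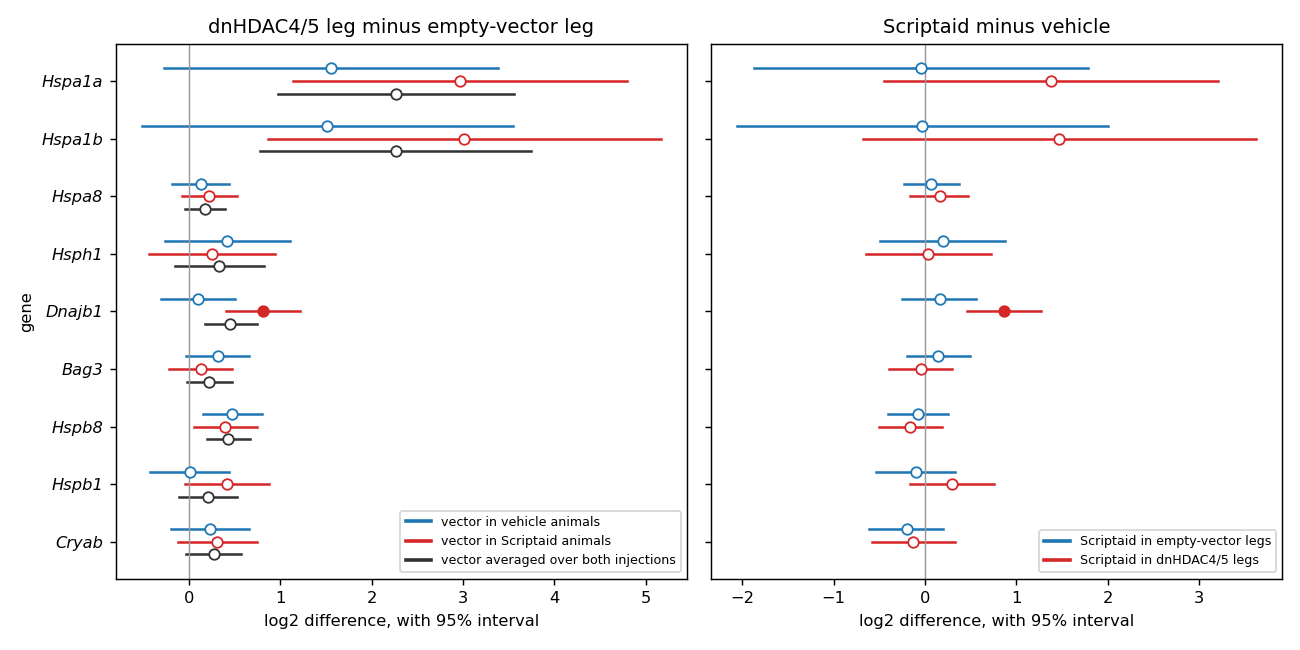
Fitted log2 difference with its 95% interval for the 9 tested members in each comparison; filled points passed at a limma adjusted p under 0.05 over all genes tested. The filled points are both Dnajb1, at 0.81 and 0.87, and the intervals of Hspa1a and Hspa1b are the widest of the members.

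Across the 9 tested members the vector differences were above 0 in 9 of 9, in vehicle mice as in Scriptaid mice, against 49.6% and 55.3% of all genes. In vehicle mice it was 8 of 9 with normexp, quantile normalization, the mean of all probes or the replicate block. In Scriptaid mice it was 8 of 9 with quantile normalization or the mean of all probes. With the series matrix it was 7 of 8 in both. Hspb1 in vehicle mice was at 0.01 ± 0.21, and no direction is given for Cryab. In vehicle mice no member passed, and neither did any other gene (0% of 15725). At an unadjusted limma p under 0.05, 1 of 9 members was counted in vehicle mice (Hspb8) against 4.64% of all genes. In Scriptaid mice 4 of 9 were counted at that level (Dnajb1, Hspa1a, Hspa1b and Hspb8) against 11.7%. The median difference over the members was 0.32 in vehicle and 0.39 in Scriptaid mice, beside 0.00 and 0.03 over all genes. Hspa1a and Hspa1b are not separate readings. The vehicle and Scriptaid comparisons share no array, but the members were chosen with earlier results of these data known. Their counts and medians beside those of all genes, here and below, are therefore a description and not independent support.

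Averaged over both injections, 0 of 9 members passed, against 1.09% of all genes, and fitted differences were above 0 in 9 of 9 against 53.6%. The latter count was 8 of 9 with the mean of all probes and 7 of 8 with the series matrix. At an unadjusted limma p under 0.05 the average counted 4 of 9 members, against 12.2%, and the same genes were Hspa1a, Hspa1b, Dnajb1 and Hspb8. Among genes with all pairs measured, the right leg was higher in every vehicle mouse for 3 of 6 members (3.4% of genes), in every Scriptaid mouse for 2 of 3 (10.2%) and in all 10 mice for 1 of 3, Hspa1a (1.01%).

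In dnHDAC4/5 legs the Scriptaid differences of the members ran from -0.16 for Hspb8 to 1.47 for Hspa1b, with 6 of 9 above 0 against 57.5% of genes. At an unadjusted limma p under 0.05, 1 of 9 (Dnajb1) was counted against 10.6%. Every HS leg above every HV leg was seen for 0 of 3 fully measured members, against 1.2% of genes, and every ES leg above every EV leg for 0 of 7, against 0.648%.

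Scriptaid in empty-vector legs passed for 0 of 9 members and 0% of all genes, and 0 of 9 members reached an unadjusted limma p under 0.05 against 3.83%. Fitted differences there lay between -0.20 and 0.20, with 4 of 9 above 0 against 53.2% of genes. On the mean of both legs of a mouse, which takes the mouse as the unit of the injection, 0 of 9 members passed against 0.204% of genes, with 6 of 9 differences above 0 against 56%. Dnajb1 had the smallest p among the members there, with 0.51 ± 0.16 (limma unadjusted p = 0.00998, adjusted p = 0.475), and was the 1 of 9 at an unadjusted p under 0.05 against 6.94% of genes. The interaction passed for 0 of 9 members against 0.178% of genes, with 6 of 9 values above 0 against 54.7%, and 1 of 9, Dnajb1, reached an unadjusted limma p under 0.05 against 4.07%.

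**Figure D3:**
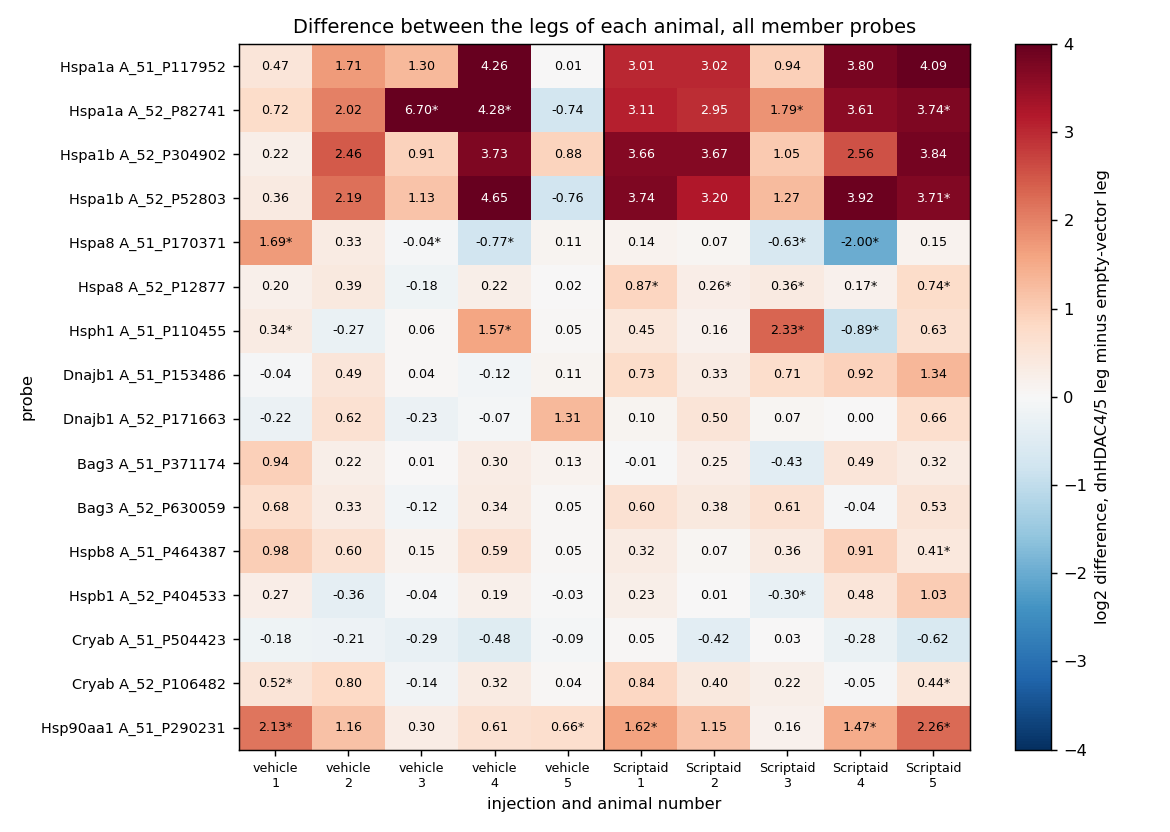
Right minus left leg difference (log2) of each probe of the members in each of the 10 mice. An asterisk marks a pair with a spot left out. The cells of Hspa1a probe A_51_P117952 are positive in all 10 mice, from 0.01 in vehicle mouse 5 to 4.26 in vehicle mouse 4. Those of the other Hspa1a probe, A_52_P82741, run from -0.74 in vehicle mouse 5 to 6.7 in vehicle mouse 3, the latter with an asterisk.

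The members differed in how much they varied between mice of 1 group. The SD within groups was 1.48 for Hspa1a and 1.63 for Hspa1b, above 98.7% and 99.2% of all genes, beside a median of 0.32 over all genes. Hspa8, at 0.15, lay at the 4.4 percentile, with saturated spots on several arrays. Bag3 (0.26), Hspb8 (0.25), Cryab (0.30) and Dnajb1 (0.31) lay near the median.

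Single mice stood out for several members together. On the probes used in the fit, HS 4 and HS 5 were the highest HS arrays for Hspa1a, Dnajb1, Bag3 and Hspb1, and EV 1 was the lowest EV array for Bag3, Hspb8 and Hsph1. The other Bag3 probe did not show this, with HS 4 at 0.86 below 3 of the other HS arrays, and EV 4 at 0.50 below EV 1 at 0.82. Over arrays, Bag3 correlated with Hsph1 at r = 0.79 (16 arrays), with Hspb8 at 0.65 and with Hspb1 at 0.60 (19 arrays each). Dnajb1 correlated with Hspb1 at 0.68 (19 arrays) and with Hspa1a at 0.60 (20 arrays), while Hspa1a and Cryab gave -0.04 (18 arrays). These points share arrays, mice and the group differences, and are given as a description.

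Marker genes of other cell types moved with the groups, and their part in the differences above was not tested. Of 7 adipocyte markers, 7 had a vector difference above 0 in Scriptaid mice, with a median of 1.94, and 1 of 7 in vehicle mice, with a median of -0.45. The mean level of that list ran from -0.89 to 2.02 in EV, -2.09 to 1.47 in HV, -2.37 to 1.91 in ES and -0.87 to 2.69 in HS. Of 10 slow-fibre markers, 1 was above 0 in vehicle mice (median -0.81) and 10 in Scriptaid mice (median 0.33), with levels of 0.76 to 3.16, -0.21 to 1.86, 0.55 to 1.95 and 0.69 to 2.73 in EV, HV, ES and HS.

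The median vector differences of the other lists in vehicle and Scriptaid mice were 0.12 and 0.12 for the fast-fibre list, 0.09 and 0.10 for regenerating fibres, 0.17 and 0.30 for macrophages, 0.18 and 0.12 for fibroblasts, and -0.04 and -0.21 for endothelium. They were -0.79 and 0.06 for Schwann cells, -0.72 and 0.54 for red blood cells, and 0.17 and 0.38 for immediate early genes. No list had a gene that was never above background. In bulk tissue, fewer cells of a type and less RNA per cell cannot be told apart.

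The rest of the heat shock network was read from lists of 77 other genes, of which 72 were tested. These lists too were chosen with earlier results of these data known. For the averaged vector difference, 52 of 72 lay above 0 with a median of 0.08, beside 53.6% and 0.02 over all genes. At the threshold 1 of 72 passed, against 1.09% of all genes, and at an unadjusted limma p under 0.05, 7 were higher and 3 lower, against 12.2% in either direction. By role, the J-domain list had 4 higher and 1 lower of 15 (median 0.12), and the HSP90 machinery 2 higher and 1 lower of 15 (median 0.15). The HSP70 family and its exchange factors had 1 higher of 14 (median 0.10), and small heat shock proteins 1 lower of 5 (median -0.02). The partners of Bag3 in selective autophagy (8 tested, median 0.11), the chaperonins (11 tested, median 0.08) and the heat shock factors (4 tested, median -0.04) had 0 at that level. Probes of Hsf1, the main heat shock factor, differed in sign, with -0.22 ± 0.31 (limma adjusted p = 0.846) for the brightest, which read 7.17 in EV 4 and 3.80 to 4.51 in the other EV legs, and 0.60 ± 0.34 and 0.21 ± 0.12 for the others. No direction is given for Hsf1.

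The gene that passed was Dnajb11, a J-domain partner of the HSP70 of the endoplasmic reticulum. It read 2.26 to 2.92 in EV, 2.89 to 3.27 in HV, 2.15 to 2.89 in ES and 2.81 to 3.36 in HS. It rose by 0.48 ± 0.11 in right legs (limma adjusted p = 0.0418), and with the animal as a block the adjusted p was 0.053. The call was lost in 6 of 14 other settings and without 15 of the 20 arrays in turn. Other genes with the smallest p of their lists did not pass. Among them were Dnajb5, a J-domain protein (-0.54 ± 0.14, limma adjusted p = 0.0704), and Hspb3, a muscle small heat shock protein (-0.53 ± 0.14, 0.0750). Hspa4l of the HSP110 family gave 0.46 ± 0.15 (0.160). An edge-zone probe of Hspa4l gave -1.21 ± 0.43, and its other probes inside the array 0.37 ± 0.13 and 0.38 ± 0.21. Sugt1 and Hsp90ab1 of the HSP90 machinery gave 0.34 ± 0.12 and 0.23 ± 0.10 (0.218 and 0.326). Also named by the rule were Hspbp1 (0.23 ± 0.11), Hspb7 (0.65 ± 0.32), Vps18 (0.16 ± 0.15) and Synpo2 (0.16 ± 0.15). So were Cct2 (0.25 ± 0.12), Cct5 (0.18 ± 0.09) and Hsf2 (-0.08 ± 0.23).

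Fkbp5, an HSP90 co-chaperone and a known target of glucocorticoids, passed for Scriptaid among the other network genes. Its medians were -1.18 in EV, -1.30 in HV, -0.39 in ES and -0.07 in HS. No vehicle leg read above -0.99 and no Scriptaid leg below -0.57, so they did not overlap. Every Scriptaid leg above every vehicle leg was seen for 1.2% of all genes in dnHDAC4/5 legs and for 0.648% in empty-vector legs. It rose by 1.14 ± 0.20 in dnHDAC4/5 legs (limma adjusted p = 0.00434), a call kept when any 1 of the 20 arrays was left out. The difference in empty-vector legs was 1.04 ± 0.20, where no gene passed (limma adjusted p = 0.264). On the animal mean it rose by 1.09 ± 0.18 (limma adjusted p = 0.0403), and that call was lost in 6 of 14 other settings and when any 1 mouse was left out, with an adjusted p of 0.0524 to 0.123. Dnajb14, a J-domain protein, also passed in dnHDAC4/5 legs, at 0.69 ± 0.15 (limma adjusted p = 0.0280), on a probe in the edge zone. Another probe in that zone gave -2.87 ± 0.43 and a probe inside the array 0.00 ± 0.14, so no direction is given for this gene.

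**Figure D4:**
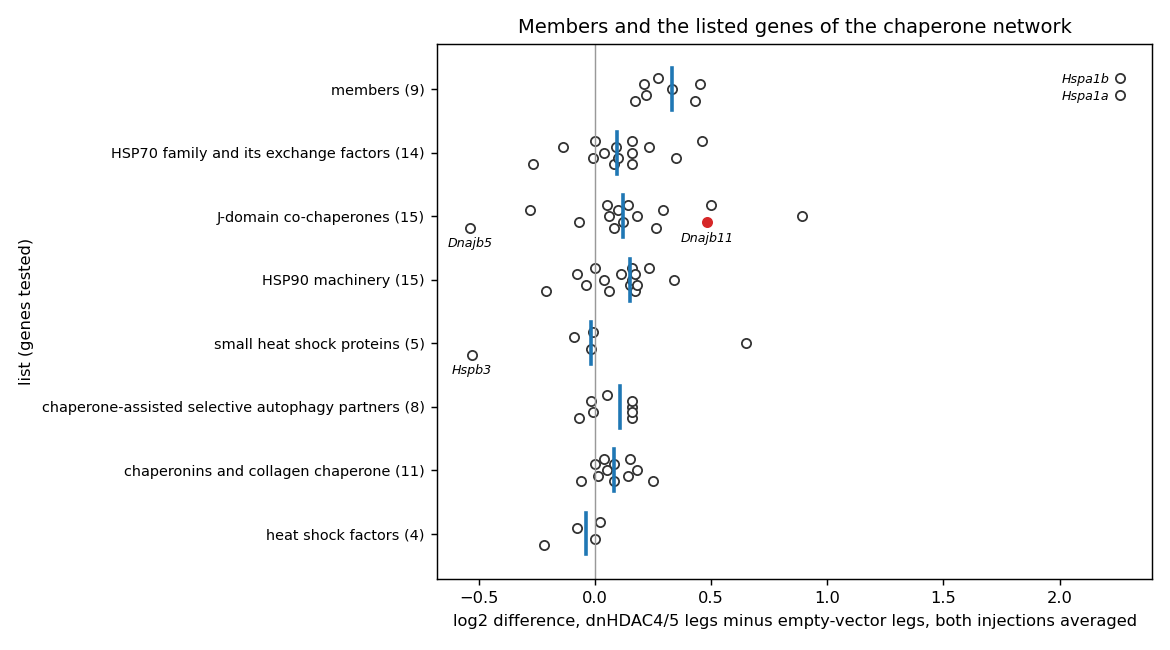
Averaged vector difference (log2) of the members and of the other tested genes of the heat shock network, by list; each point is a gene, red marks a gene that passed at a limma adjusted p under 0.05, and the blue bar is the median of the list. The members have a median of 0.33 and the other lists of -0.04 to 0.15.

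Genes whose values followed a member over the 20 arrays were sought among 10283 genes measured on all of them. The members and genes with a probe in the edge zone were left out of these. For Hspa1a the highest Pearson correlations were with an unnamed probe (A_51_P182813, r = 0.90), Bmp2k (0.88), Slc15a4 (0.85), Atp13a3 (0.84) and Lpin2 (0.84). Of these, Atp13a3 (0.51 ± 0.11, limma adjusted p = 0.0352) and Lpin2, a phosphatidate phosphatase (1.30 ± 0.30, 0.0391), rose in right legs on average. In that comparison 1.09% of all genes passed. These genes were picked for following Hspa1a, which itself read higher in right legs, so such a rise is partly built into the choice. For Bag3 the highest correlations were with Wnt9a (0.84), Ascc2 (0.79), Kansl2 (0.77), Phf23 (0.75) and Rdh13 (0.75), none of which passed for the averaged vector difference.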

How the data were processed

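Per the labels' protocols, 100 ng of RNA was labelled for each array. Per the file headers, Feature Extraction 9.5.1.1 wrote a background-corrected processed intensity per spot, which the authors deposited for all 20 arrays of the design Agilent-014868. The series matrix that the authors deposited holds a ratio of that intensity to a constant per array and was used as an alternative only.

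Here log2 intensity minus the 75th percentile of the array was used. Spots with the scanner software's marks for non-uniformity or for population outliers were dropped. A probe was kept when well above background on at least 5 arrays and with 3 arrays left per group (23609 probes), and where a gene had several, the one with the highest mean was used. Group means were fitted to all 15725 genes in limma (version 3.58.1, under R 4.3.3 and data.table, version 1.17.8). Tests were two-sided and moderated, p-values were adjusted by Benjamini-Hochberg across every gene, and the threshold was 0.05. The number of arrays limits the precision, and saturated spots understate differences.

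Replicate numbers are slides. Animal identifiers in the labels pair the 2 legs of a mouse, and deviations of paired legs correlated at 0.03 to 0.41. Groups of 5 are separate mice within an injection. Members and gene lists were chosen with earlier results of these data known. Besides the members, the rule named the 2 genes of smallest p per list for the averaged vector difference, and any network gene that passed in a comparison. Alternatives were normexp with quantile normalization, other scalings, filters and probe rules, the series matrix, edge spots left out, the replicate block, the slide as a random block, and each array left out. Coordinates and promoters are RefSeq's for GRCm38.p6.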

Additional observations from a re-analysis of the deposited data

Results flagged for a closer look

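One array stood apart from its group for a member. The Hspa8 probe A_51_P170371 read 6.66 in ES 3, while the other 4 ES arrays read 7.06 to 7.22, so the gap was 0.72 of the range of the 5 arrays, and the spot of ES 3 was saturated. Of 58 sets of a probe and a group looked at, 1 stood out in this way, and chance alone does so in about 1 in 20.

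Some member spots that the fit does not use read higher in HS than in EV. All 5 HS spots of the other Hspa8 probe, A_52_P12877, carry the scanner software's mark for non-uniform spots. Their mean was 0.55 above that of the EV arrays, with HS at 5.47 to 6.09 and EV at 5.05 to 5.46. The probe is named here because every HS spot read above every EV spot, and the share of all genes that did so was not counted. HS arrays had 657 to 1342 spots left out by such marks, against 375 to 685 on the other arrays. The difference was not tested.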

How the results depend on the processing

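Members called in Scriptaid mice between legs (1 in the main setting) and for Scriptaid in dnHDAC4/5 legs (1) depended on the processing. Both counts were 0 with normexp and quantile normalization, the array median, the series matrix, the mean of all probes and edge spots left out. The first was also 0 with quantile normalization, with no filter on signal and with the outer 2 columns and 5 rows left out, an alternative chosen after seeing the data. The second was also 0 with the replicate block and edge spots left out together. For the averaged vector difference (0), the count was 2 with normexp and quantile normalization and 2 with the slide as a random block (Hspa1a and Hspb8 both times). Leaving out edge spots tests 7 members, since Hspa8 and Hsph1 lose their probe, and 14213 genes. Of these genes 0.211% passed between legs in Scriptaid mice and 0.267% for Scriptaid in dnHDAC4/5 legs. In the main setting these shares were 1.24% and 1.28%. Neither Dnajb1 probe lies in the edge zone, and the cause of the lost calls was not tested. Leaving out single arrays gave 0 to 1 called between legs in Scriptaid mice, 0 to 1 for Scriptaid in dnHDAC4/5 legs, and 0 to 3 for the average. The 3 were Hspa1a, Hspa1b and Hspb8, without HV 5. Without HS 2 there were 2, Dnajb1 and Hspb8, and without HS 3 there was 1, Hspa1a. For the other comparisons no member passed in any setting tried.

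With the replicate block (the animal for the vector comparisons), 2 members passed between legs in Scriptaid mice (Dnajb1 and Hspa1a) and 1 for the average (Hspa1a), which stayed at 1 with edge spots left out too. The block changed no other call of a member.

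Over the 14 other settings the averaged difference was 2.17 to 2.82 for Hspa1a (limma adjusted p 0.0343 to 0.148), 0.41 to 0.48 for Hspb8 (0.0255 to 0.245) and 0.18 to 0.28 for Bag3 (0.246 to 0.689). The 2.82 came with marked spots kept, where the gene was read from its other probe, A_52_P82741. Signs turned for the following differences, none of which passed in a setting tried. Hspb1 in vehicle mice was -0.02 with normexp, -0.06 with quantile normalization and -0.10 to 0.12 with single arrays left out. Hsph1 in vehicle mice was -0.05 with the replicate block. Hspa8 in Scriptaid mice was 0 with quantile normalization, and it was -0.45 there and -0.09 on average with marked spots kept. Cryab was -0.19, -0.30 and -0.25 in vehicle mice, Scriptaid mice and on average with the series matrix, and -0.61, -0.60 and -0.60 with the mean of all probes. In empty-vector legs the Scriptaid difference of Hspa1a was 0.01 with the array median, 0.03 with the series matrix, 1.31 with marked spots kept, 0.65 with the mean of all probes and -0.40 to 0.37 with single arrays left out. The 1.31 is a reading of the other probe, A_52_P82741, which had the highest mean once marked spots were kept. That probe read -2.62 in EV 3, and it also enters the 0.65. For Hspa1b the Scriptaid difference in these legs was 0.02 with the array median, 0.05 with the series matrix and -0.38 to 0.36 with single arrays left out. Signal limits Hspa8, Cryab and Hspb8 at the top of the scale, where spots saturate, and the dimmer Hspa1b probe at the bottom.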
